A study of Mus musculus with 34 samples.

Results

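The cerebral cortex of daughters of C57BL/6N mice was compared after exposure to MDMA before birth and without it, on 15 of the 34 arrays of a series that also holds sons. These were the arrays labelled as female: 8 of daughters of the MDMA group (F1F20CX, 20 mg/kg) and 7 of non-treated control daughters (F1FCCX). The other 19 arrays came from 9 MDMA sons and 10 control sons of the same strain and tissue. Per the labels' protocols, an oral dose of 20 mg/kg of MDMA hydrochloride was dissolved in saline (3 ml/kg), the purchased mice were 6 weeks old, and RNA was kept where its 28S to 18S ratio was above 1.6. The controls are called non-treated, and no vehicle is named for them. The labels do not state the age of the offspring, their litters or the days of dosing. P-values therefore measure only the spread between samples, which may share a litter.

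MDMA (3,4-methylenedioxymethamphetamine) is an amphetamine that makes nerve terminals release serotonin, and to a lesser extent noradrenaline and dopamine, by reversing their transporters. It crosses the placenta, so a dose given to the mother reaches the fetal brain. The developing cortex is built by transcription factors that set regional identity and layers and carry newborn neurons through their differentiation, and serotonin acts on it as a trophic signal before synapses are mature.

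Each array carried 33012 gene probes, but 32695 of them, mostly with identifiers of an older gene catalogue, could not be paired with a current symbol here. A symbol was available for 311 genes, of which 170 had a probe that could be tested; a spot is called above the detection limit where its signal-to-noise ratio is 3 or more. The genes named below are these, so they show a small part of what was measured. All levels are log2 of a quantile-normalised signal, and all differences are MDMA minus control in the same log2 units. Adjusted p-values come from limma, over every probe tested, with a threshold of 0.05.

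Among 18258 tested probes, 5148 differed between MDMA and control daughters, 28.2% of those tested: 2560 were higher (14.0%) and 2588 lower (14.2%). The difference was at least 2-fold for 892 probes, 4.89% of those tested. The median difference of all tested probes was -0.09 log2 units, and centring each array on its median in place of quantile normalisation moved it to -0.20. Under that scaling 29.3% of the called probes were higher in MDMA daughters, against 49.7% with quantile normalisation, so a small difference has a less certain direction than a large one. Of the 170 genes with a symbol, 41 passed (24.1%, near the share for all probes): 15 were higher and 26 lower, with a median of -0.11 over all 170.

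**Figure D1:**
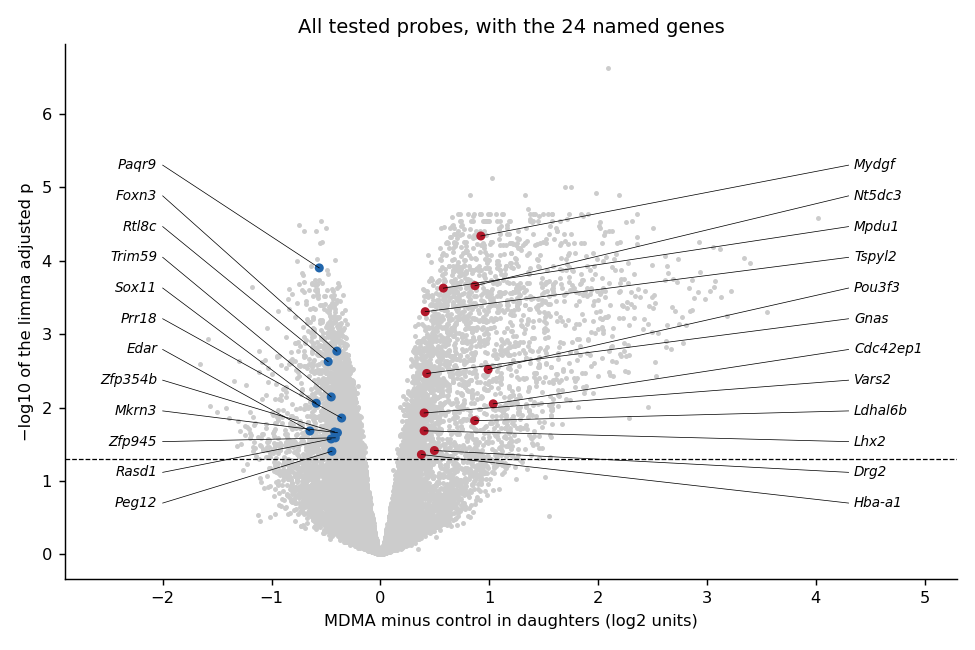
Difference between MDMA and control daughters (horizontal, log2 units) against the −log10 of limma's adjusted p (vertical) for each of the 18258 tested probes, with 12 genes higher in MDMA daughters in red and 12 lower in blue. The dashed line is the adjusted p of 0.05; named rises extend to 1.04 log2 units and named falls to -0.65, while many probes without a symbol lie further right.

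The 15 arrays did not fall in one cloud. On the first principal component, which held 35.3% of the variance, scores ran from 9.88 to 61.03 in MDMA daughters and from -59.32 to -9.43 in control daughters, without overlap. In the labels' running numbers the MDMA daughters hold 8 to 15 and the controls 1 to 7, so the scores can be read in that order. From number 8 to 15 the MDMA daughters scored 21.59, 61.03, 32.24, 23.30, 31.60, 35.77, 23.74 and 9.88, and from number 1 to 7 the controls scored -59.32, -57.80, -42.43, -30.91, -24.38, -14.87 and -9.43. The control scores were in the order of the number and the MDMA scores were not. What that number stands for is not given, and its order and the treatment cannot be told apart. With the running number added as a covariate, a fit chosen after seeing the data, 3 probes passed where 5148 had passed without it. The median standard error was then 2.04 times as large, 5030 of the 5148 called probes (97.7%) kept their direction and 1804 had an unadjusted p below 0.05. No gene with a symbol was among the 3. The median ratio of a called probe's difference with the covariate to that without it was 0.811. Among the 24 largest named rises and falls, Drg2 went from 0.50 to 0.07, Edar from -0.65 to -0.10 and Zfp945 from -0.41 to -0.04. The difference was larger in size for Cdc42ep1, Ldhal6b, Gnas, Vars2, Sox11, Rtl8c, Rasd1 and Zfp354b, and smaller for the rest of the 24.

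**Figure D2:**
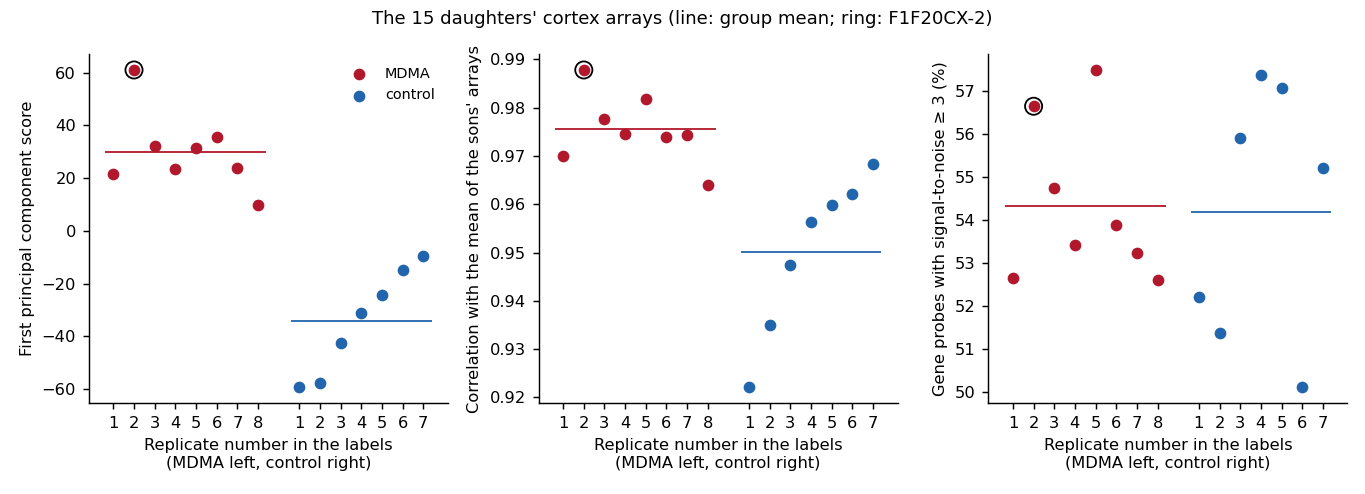
First principal component score, correlation with the mean of the sons' arrays, and percent of gene probes detected (signal-to-noise of 3 or more), for each of the 15 arrays by replicate number, MDMA daughters (red) left of control daughters (blue). Lines are group means and the ring marks F1F20CX-2, which has the highest score (61.03) and the highest correlation with the sons (0.988); the detected share overlaps between the groups.

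One array of the MDMA group, F1F20CX-2, stood apart. On 65 probes it lay at least 2 log2 units outside the range of the other MDMA daughters, against 1 to 13 probes for the other 7 arrays of that group, and on 61 of the 65 it was nearer to the sons' median. Its correlation with the mean of the sons' arrays was 0.988, against 0.964 to 0.982 for the other MDMA daughters and 0.922 to 0.968 for control daughters. On 91 probes control replicate 1 lay as far outside the other controls. Without F1F20CX-2, 5227 of 17986 probes passed (29.1%), and 4648 probes passed in the same direction in both fits. Of the 41 genes, 36 passed with and without it, 14 higher and 22 lower. Results for the 24 largest named rises and falls are given both ways below. Leaving out each of the other arrays in turn gave 4227 to 5215 called probes.

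The share of gene probes detected (signal-to-noise of 3 or more) was 54.3% ± 1.83 (SD, n = 8) in MDMA daughters and 54.2% ± 2.91 (SD, n = 7) in control daughters, a difference of 0.15 percentage points (exact permutation test, two-sided, p = 0.90). It ran from 52.6% to 57.5% in MDMA daughters and from 50.1% to 57.4% in control daughters. Of the tissue's defining cell markers, Snap25 for neurons and Hba-a1 for blood had a named probe above the detection limit; the marker lists for astrocytes, oligodendrocytes, microglia, endothelium and choroid plexus had 0 named probes, so the makeup of the tissue was not tested. Zbtb18 and Lhx2, transcription factors of the developing and adult cortex, were detected on all 15 arrays. In whole tissue, fewer cells of a type and less RNA per cell cannot be told apart.

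The groups separated completely for 7 of the 170 genes (4.12%), against 7.76% of all tested probes (9.74% without F1F20CX-2). Mydgf, Nt5dc3, Mpdu1 and Tspyl2 were higher on every MDMA array than on any control array, and Paqr9, Foxn3 and Rtl8c were lower on every one. With 2 components of the control probes as covariates, 13 of the 24 largest named rises and falls no longer passed: Cdc42ep1, Drg2, Vars2, Lhx2, Hba-a1, Edar, Rasd1, Peg12, Zfp354b, Zfp945, Foxn3, Mkrn3 and Prr18. With no filter on dim probes 8 no longer passed (Drg2, Lhx2, Hba-a1, Rasd1, Peg12, Zfp354b, Zfp945 and Mkrn3). The adjusted p was smallest for Mydgf, Paqr9, Nt5dc3, Mpdu1 and Tspyl2, in that order. The 250 bases before the start of 4 of these 5, those for which RefSeq's table of GRCm38.p6 has an entry, are shown 5′ to 3′ because their genes are the ones the comparison separates best. Capitals mark matches on either strand to the GC box, searched as GGGCGG, and to the CCAAT box, searched by those letters. The TATA box was searched as TATAAA, and the cyclic AMP response element as TGACGTCA, and none of the 4 motifs overlap in these windows.
Mydgf: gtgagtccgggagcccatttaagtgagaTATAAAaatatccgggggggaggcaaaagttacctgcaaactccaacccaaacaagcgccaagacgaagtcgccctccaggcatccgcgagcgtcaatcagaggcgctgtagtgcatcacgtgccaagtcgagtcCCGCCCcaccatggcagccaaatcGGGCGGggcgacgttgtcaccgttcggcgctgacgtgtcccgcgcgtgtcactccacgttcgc
Nt5dc3: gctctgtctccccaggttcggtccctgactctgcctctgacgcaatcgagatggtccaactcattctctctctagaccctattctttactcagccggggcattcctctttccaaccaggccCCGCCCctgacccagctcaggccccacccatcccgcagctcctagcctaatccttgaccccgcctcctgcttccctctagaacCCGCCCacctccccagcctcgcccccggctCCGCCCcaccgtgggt
Mpdu1: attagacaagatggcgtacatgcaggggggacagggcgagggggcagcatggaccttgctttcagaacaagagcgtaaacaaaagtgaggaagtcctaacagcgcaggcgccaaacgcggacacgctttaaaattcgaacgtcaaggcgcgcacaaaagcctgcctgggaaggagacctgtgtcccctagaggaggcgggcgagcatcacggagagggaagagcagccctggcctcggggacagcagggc
Tspyl2: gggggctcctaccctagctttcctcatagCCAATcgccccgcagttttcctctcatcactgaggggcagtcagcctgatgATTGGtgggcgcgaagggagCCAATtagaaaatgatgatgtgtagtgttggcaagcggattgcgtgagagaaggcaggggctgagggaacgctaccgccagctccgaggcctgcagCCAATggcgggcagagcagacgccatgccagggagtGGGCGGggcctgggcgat

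The windows are Mydgf chr17:56183921-56184170 (minus strand), Nt5dc3 chr10:86778755-86779004 (plus strand), Mpdu1 chr11:69662650-69662899 (minus strand) and Tspyl2 chrX:152342485-152342734 (minus strand). The GC box was matched 2 times for Mydgf, 3 times for Nt5dc3, 0 times for Mpdu1 and 1 time for Tspyl2, and 32.7% of 32851 windows of the same length hold it. The CCAAT box was matched 4 times before Tspyl2 and 0 times in the other 3 (33.8% of windows hold it), and the TATA box 1 time before Mydgf (12.4%). The cyclic AMP response element was in none of the 4 and is in 1.55% of windows. Their GC content was 60.0% for Mydgf, 64.0% for Nt5dc3, 59.2% for Mpdu1 and 61.2% for Tspyl2, against a median of 52.4% for all windows, and each held 12 to 25 CpG against a median of 6. The matches are descriptions of these letters, and no binding was measured.

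Mydgf was higher and the receptors Paqr9 and Edar were lower in MDMA daughters. Mydgf encodes a growth factor first known from myeloid cells of bone marrow, which also resides in the secretory pathway. Its signal was 13.76, 13.96 and 14.16 log2 units in MDMA daughters, against 12.76, 13.01 and 13.46 in control daughters (lowest, median and highest, as for each gene below). The lowest MDMA array was above the highest control array. The difference was 0.92 ± 0.11 (SE, adjusted p = 4.6e-05), a fold of 1.90, and 0.90 without F1F20CX-2 (adjusted p = 9.9e-05). With the running number as a covariate it was 0.68 and did not pass (adjusted p = 0.20). Paqr9, a membrane receptor of the progestin and adipoQ receptor family, moved the other way. Its signal was 12.19, 12.43 and 12.52 log2 units in MDMA daughters, against 12.73, 12.97 and 13.15 in control daughters. The groups did not overlap, and the difference was -0.56 ± 0.08 (SE, adjusted p = 0.00013), which left MDMA daughters at 0.677 of the control level, with -0.57 without F1F20CX-2 (adjusted p = 0.00021). Edar, the receptor for ectodysplasin in the tumour necrosis factor receptor family, had 10.51, 11.22 and 11.68 log2 units in MDMA daughters, against 11.34, 11.85 and 12.51 in control daughters. The ranges overlapped, the lowest value was F1F20CX-2, and the difference was -0.65 ± 0.19 (SE, adjusted p = 0.021), with -0.55 without F1F20CX-2 (adjusted p = 0.031).

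Of the chosen list of 20 growth factors and receptors, 3 had a tested probe: Mydgf rose, and Edar and Fgf11 fell. Fgf11 is a fibroblast growth factor homologue that stays inside the cell and binds sodium channels. It differed by -0.28 ± 0.08 (SE, adjusted p = 0.015) and by -0.25 without F1F20CX-2 (adjusted p = 0.019). No filter on dim probes or control probe covariates ended the call for Fgf11. The median of the 3, -0.28, is the value of Fgf11 itself. Over all tested probes 28.2% passed. The list was chosen with earlier results of these data known, so the count of 3 is a description only.

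Signalling inside the cell was represented by Gnas, Rasd1, Ramp3 and Cdc42ep1. Gnas encodes the stimulatory G protein subunit that couples receptors, among them dopamine and serotonin receptors, to adenylyl cyclase. Its signal was 15.49, 15.61 and 15.89 log2 units in MDMA daughters, against 14.91, 15.23 and 15.53 in control daughters. All 8 MDMA arrays were above the control mean, with a slight overlap of the ranges, and the difference was 0.43 ± 0.09 (SE, adjusted p = 0.0034), with 0.41 without F1F20CX-2 (adjusted p = 0.0056). Centring on the median ended this call. Rasd1, a Ras-like protein induced by glucocorticoids that modulates G protein signalling, had 12.12, 12.74 and 12.92 log2 units in MDMA daughters, against 12.64, 13.10 and 13.31 in control daughters. All 8 MDMA arrays were below the control mean, and the difference was -0.45 ± 0.14 (SE, adjusted p = 0.027), with -0.50 without F1F20CX-2 (adjusted p = 0.019). That call was lost when control replicate 3, control replicate 7 or MDMA replicate 3 was left out, with a highest adjusted p of 0.056. Ramp3, which escorts and modifies calcitonin-family receptors, did not pass (-0.10 ± 0.08, SE, adjusted p = 0.34).

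Cdc42ep1 is an effector of the small GTPase Cdc42 that shapes actin. Its signal was 9.66, 10.70 and 11.57 log2 units in MDMA daughters, against 9.01, 9.65 and 10.44 in control daughters, and 7 of 8 MDMA and 5 of 7 control arrays were above the detection limit. The highest value was F1F20CX-2, and MDMA replicate 8, which was not above that limit, lay within the control range. The difference was 1.04 ± 0.26 (SE, adjusted p = 0.0089), a fold of 2.05, with 0.91 without F1F20CX-2 (adjusted p = 0.014). With components of the array's control probes as covariates it was 0.72 and did not pass (adjusted p = 0.25). Pdxp, a phosphatase of pyridoxal phosphate that also activates the actin-severing protein cofilin, is a neighbour of Cdc42ep1 on the chromosome and was higher too (0.36 ± 0.08, SE, adjusted p = 0.0027).

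Transcription factors of cortical development moved in both directions. Of the 23 on the chosen list of patterning, layer and newborn neuron factors, 3 had a tested probe, and 2 were called higher (Pou3f3 and Lhx2) and 1 lower (Sox11). That count includes Pou3f3, which entered through the MDMA group, and is given as a description only, beside 28.2% of all probes. Pou3f3 is a POU factor of upper-layer cortical neurons. Its signal was 10.22, 10.85 and 11.50 log2 units in MDMA daughters, against 9.31, 9.87 and 10.42 in control daughters. It was above the detection limit on 8 of 8 MDMA and 3 of 7 control arrays, so it entered the test through the MDMA group, where it is high, and the size of its difference rests on control signals near the floor. MDMA replicate 6 lay inside the control range and the other 7 above it. The difference was 0.99 ± 0.21 (SE, adjusted p = 0.0030), with 0.99 without F1F20CX-2 (adjusted p = 0.0050), and is no measured fold. Lhx2, a LIM homeodomain factor that specifies cortical identity in the early telencephalon, had 14.37, 14.51 and 15.03 log2 units in MDMA daughters, against 13.89, 14.06 and 14.56 in control daughters. F1F20CX-2 was the highest array at 15.03, and controls 6 and 7 reached into the MDMA range. The difference was 0.40 ± 0.12 (SE, adjusted p = 0.021), with 0.33 without F1F20CX-2 (adjusted p = 0.025), and centring on the median, no filter on dim probes or a covariate from the control probes ended the call.

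Sox11 is a high-mobility-group factor that is on in newborn neurons. Its signal was 10.48, 10.80 and 11.41 log2 units in MDMA daughters, against 11.32, 11.40 and 12.08 in control daughters. MDMA replicate 6, at 11.41, lay among the controls, of which replicate 1 stood at 12.08 and the rest between 11.32 and 11.55. All 8 MDMA arrays were below the control mean and 7 of them below every control array. The difference was -0.59 ± 0.15 (SE, adjusted p = 0.0087), with -0.58 without F1F20CX-2 (adjusted p = 0.014). It passed with any single array left out, with differences from -0.66 to -0.49. Foxn3, a forkhead factor that mostly represses transcription, had 13.72, 13.82 and 14.04 log2 units in MDMA daughters, against 14.10, 14.24 and 14.55 in control daughters. The groups did not overlap and the difference was -0.40 ± 0.08 (SE, adjusted p = 0.0017), with -0.40 without F1F20CX-2 (adjusted p = 0.0027).

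Zinc finger proteins, of which the KRAB kind silences transposons, had 8 tested genes, chosen by symbol. Of these 8, 2 fell and 0 rose, a share near the 28.2% of all probes that passed. Zfp354b had 10.71, 10.88 and 11.46 log2 units in MDMA daughters, against 10.97, 11.45 and 11.66 in control daughters. F1F20CX-2 lay among the other MDMA arrays, 2 of which were within the control range. The difference was -0.42 ± 0.13 (SE, adjusted p = 0.021), with -0.40 without F1F20CX-2 (adjusted p = 0.034). Zfp945 had 10.12, 10.57 and 10.87 log2 units in MDMA daughters, against 10.57, 11.04 and 11.33 in control daughters. All 8 MDMA arrays were below the control mean. The difference was -0.41 ± 0.13 (SE, adjusted p = 0.026), with -0.41 without F1F20CX-2 (adjusted p = 0.035). Its adjusted p rose to 0.057 at most when 1 of control replicates 1, 2 and 4 was left out. The median of the 8 was -0.12.

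Chromatin proteins were few. Tspyl2, an X-linked member of the nucleosome assembly protein family that binds the synaptic scaffold kinase CASK, had 13.31, 13.53 and 13.60 log2 units in MDMA daughters, against 12.94, 13.10 and 13.27 in control daughters. The groups did not overlap, the difference was 0.41 ± 0.07 (SE, adjusted p = 0.00050), and it was 0.43 without F1F20CX-2 (adjusted p = 0.00040). Of 2 tested histone genes, H2bc18 fell by 0.33 ± 0.08 (SE, adjusted p = 0.0085), while H2bc13 differed by -0.06 ± 0.09 (SE, adjusted p = 0.67). With control probe covariates H2bc18 no longer passed.

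**Figure D3:**
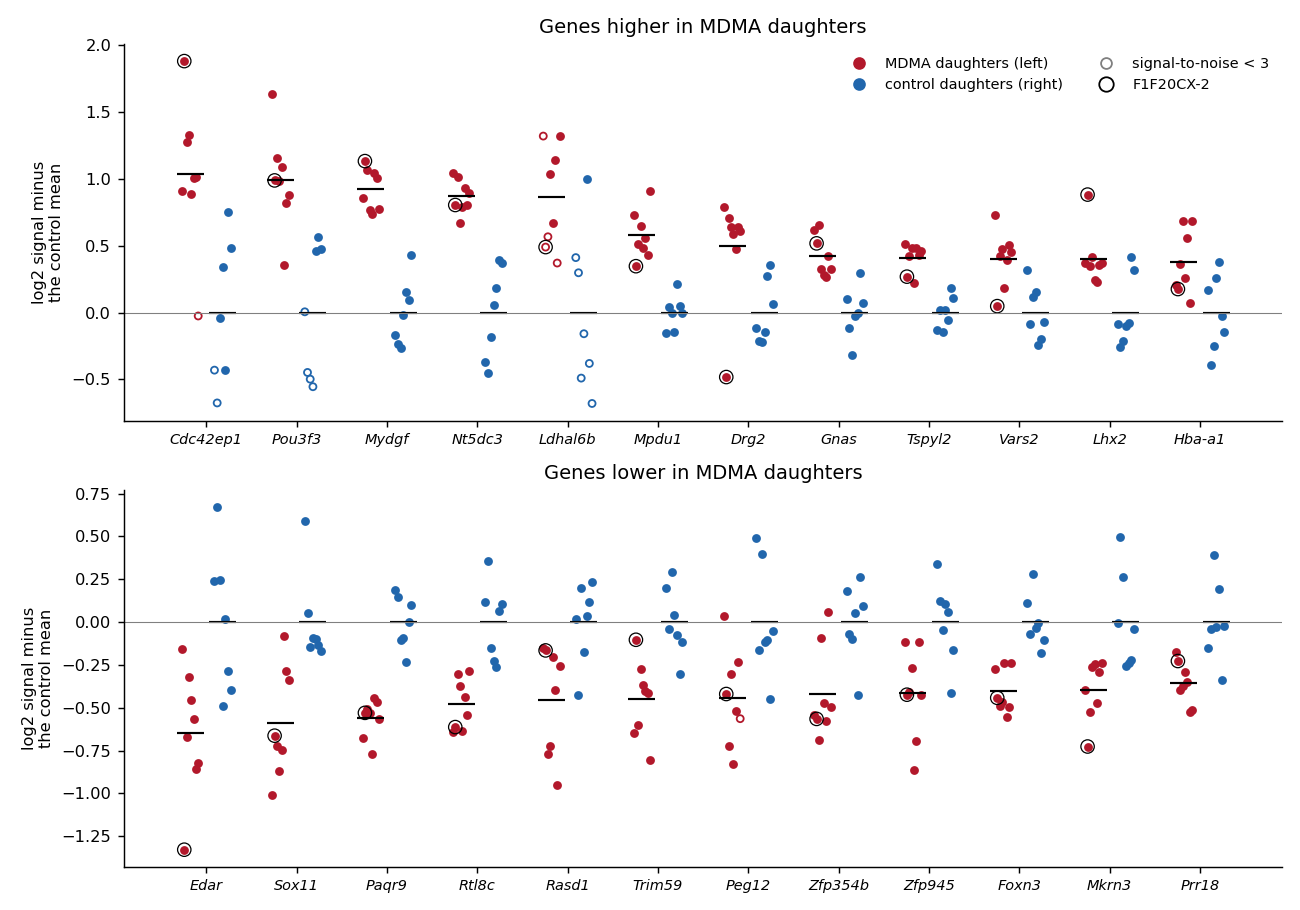
Log2 signal of each array minus the mean of the control daughters for 12 genes higher (top) and 12 genes lower (bottom) in MDMA daughters; MDMA arrays are red and left, control arrays blue and right, bars are group means, open points are signals with a signal-to-noise ratio under 3 and rings mark F1F20CX-2. Mydgf, Nt5dc3, Mpdu1, Tspyl2, Paqr9, Rtl8c and Foxn3 show no overlap between groups, and the ringed array is the lowest of Drg2 and the highest of Lhx2.

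Mpdu1, Drg2 and Vars2 were higher in MDMA daughters. Mpdu1 is needed for the use of dolichol-linked mannose in N-glycosylation. Its signal was 13.94, 14.13 and 14.50 log2 units in MDMA daughters, against 13.44, 13.58 and 13.81 in control daughters. The groups did not overlap, and the difference was 0.58 ± 0.09 (SE, adjusted p = 0.00024), a fold of 1.49, with 0.61 without F1F20CX-2 (adjusted p = 0.00018). Drg2 is a GTP-binding protein that associates with translating ribosomes. Its signal was 13.45, 14.56 and 14.73 log2 units in MDMA daughters, against 13.72, 13.82 and 14.29 in control daughters. F1F20CX-2 was the lowest of all 15 arrays at 13.45, and the other 7 MDMA arrays were above every control. The difference was 0.50 ± 0.17 (SE, adjusted p = 0.038), and it was 0.64 without F1F20CX-2 (adjusted p = 0.00040). With F1F20CX-2 kept, leaving out any array other than control replicates 5 and 6 ended the call, with a highest adjusted p of 0.077.

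Vars2, the mitochondrial valyl-tRNA synthetase, had 11.31, 11.70 and 11.99 log2 units in MDMA daughters, against 11.02, 11.20 and 11.59 in control daughters. All 8 MDMA arrays were above the control mean, with F1F20CX-2 the lowest of them, and the difference was 0.40 ± 0.11 (SE, adjusted p = 0.012), with 0.45 without F1F20CX-2 (adjusted p = 0.0040). Eif4ebp1, which binds the cap-binding factor and holds back translation, was above the detection limit on 4 of 8 MDMA and 1 of 7 control arrays, so it too entered the test through the MDMA group alone. Its difference, 1.15 ± 0.41 (SE, adjusted p = 0.046), is against signals near background and is no measured fold, and without F1F20CX-2, at 10.06, it was not tested. Drg2 and Eif4ebp1 were the only members of the chosen translation list of 9 with a tested probe, and the count is likewise a description only. Outside that list, and picked after their values were seen, Ddx28, a helicase of mitochondrial ribosome assembly, and Gnl2, a nucleolar GTPase of ribosome assembly, were lower (-0.21 ± 0.06, adjusted p = 0.018, and -0.27 ± 0.08, adjusted p = 0.021, both with SE).

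Nt5dc3 belongs to a family of proteins with a nucleotidase domain. Its signal was 14.22, 14.41 and 14.60 log2 units in MDMA daughters, against 13.10, 13.61 and 13.95 in control daughters. The groups did not overlap, and the difference was 0.87 ± 0.13 (SE, adjusted p = 0.00022), a fold of 1.83, with 0.88 without F1F20CX-2 (adjusted p = 0.00040). Within the controls the signal of Nt5dc3 went from 13.19 and 13.10 in replicates 1 and 2 to 13.95 and 13.93 in replicates 6 and 7. With the running number as a covariate its difference was 0.47 and did not pass (adjusted p = 0.41). Ldhal6b, a lactate dehydrogenase subunit known from testis, had 9.58, 10.07 and 10.53 log2 units in MDMA daughters, against 8.53, 9.05 and 10.21 in control daughters. It was above the detection limit on 4 of 8 MDMA and 1 of 7 control arrays, so it entered the test through the MDMA group alone and its difference is against signals near background. Control replicate 5, at 10.21, lay among the MDMA arrays. The difference of those signals was 0.87 ± 0.24 (SE, adjusted p = 0.015), with 0.91 without F1F20CX-2 (adjusted p = 0.014), and is no measured fold. The authors' deposited table did not call it, where dim spots are empty. In the chosen list of 16 energy metabolism genes 3 were tested and 1 was called, Ldhal6b itself, which for the reason given is no support for the list. Hsd17b10, a mitochondrial dehydrogenase, differed by -0.19 ± 0.07 (SE, adjusted p = 0.051), and Nt5m, a mitochondrial nucleotidase, by -0.10 ± 0.05 (SE, adjusted p = 0.17).

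Ubiquitin ligases and proteases were split. Of the chosen list of 13, 4 were tested: Otub1 rose, Trim59 fell, and Psme3 and Rnf112 did not pass. Beside the 28.2% of all probes that passed, so few genes give a description only. Otub1 is a deubiquitinase that blocks ubiquitin transfer at damaged DNA. It differed by 0.29 ± 0.09 (SE, adjusted p = 0.029), with 0.29 without F1F20CX-2 (adjusted p = 0.033). Centring on the median, no filter on dim probes or control probe covariates ended the call. So did leaving out control replicate 1, 2 or 3 or MDMA replicate 3 or 7. Trim59, a membrane-bound ligase of the tripartite motif family, had 12.80, 13.20 and 13.50 log2 units in MDMA daughters, against 13.30, 13.56 and 13.90 in control daughters. F1F20CX-2, at 13.50, was its highest MDMA array and lay within the control range. The difference was -0.45 ± 0.11 (SE, adjusted p = 0.0072), with -0.50 without F1F20CX-2 (adjusted p = 0.0028). Psme3, which opens the proteasome, differed by -0.09 ± 0.10 (SE, adjusted p = 0.52). Rnf112, a ligase of brain, differed by 0.15 ± 0.11 (SE, adjusted p = 0.33) and by 0.23 without F1F20CX-2 (adjusted p = 0.055). Outside the list, the ligase Trim41 was also lower (-0.14 ± 0.05, SE, adjusted p = 0.041).

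Mkrn3, Peg12, Rtl8c and Prr18 were lower in MDMA daughters. Mkrn3 and Peg12 lie in the imprinted Prader-Willi region and are expressed from the paternal copy. Of other imprinted genes, Gnas rose, as given above, and Ndn (0.08) and Ube3a (-0.12) did not pass. Mkrn3, a makorin ligase that restrains the onset of puberty in humans, had 11.08, 11.46 and 11.57 log2 units in MDMA daughters, against 11.55, 11.77 and 12.30 in control daughters. All 8 MDMA arrays were below the control mean, F1F20CX-2 was the lowest, and the difference was -0.39 ± 0.12 (SE, adjusted p = 0.022), with -0.35 without F1F20CX-2 (adjusted p = 0.035). The call ended with no filter on dim probes (adjusted p = 0.059), in the fit of all 34 arrays (0.094) and with control probe covariates (0.20), and reached an adjusted p of 0.0497 with 1 array left out. Peg12, of the family that binds glycogen synthase kinase, had 9.98, 10.34 and 10.85 log2 units in MDMA daughters, against 10.36, 10.70 and 11.30 in control daughters. MDMA arrays were below the control mean on 7 of 8, and the difference was -0.45 ± 0.15 (SE, adjusted p = 0.039). It was -0.45 without F1F20CX-2 and barely passed (adjusted p = 0.0498). The call was lost, with a highest adjusted p of 0.085, without control replicate 1, 3, 4, 5 or 7 or MDMA replicate 3, 5, 6 or 8. Rtl8c, a retrotransposon Gag-like gene, had 12.73, 12.88 and 13.08 log2 units in MDMA daughters, against 13.11, 13.43 and 13.73 in control daughters. Its groups did not overlap, and the difference was -0.48 ± 0.10 (SE, adjusted p = 0.0024), with -0.46 without F1F20CX-2 (adjusted p = 0.0042). Prr18, a proline-rich protein, was measured by 3 probes. Its brightest probe had 14.98, 15.14 and 15.33 log2 units in MDMA daughters, against 15.16, 15.47 and 15.90 in control daughters. That probe differed by -0.36 ± 0.10 (SE, adjusted p = 0.014), with -0.38 without F1F20CX-2 (adjusted p = 0.013). The other probes differed by -0.32 ± 0.11 (SE, adjusted p = 0.046) and -0.21 ± 0.12 (SE, adjusted p = 0.21).

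Hba-a1, an alpha chain of haemoglobin, was higher in MDMA daughters. It was the 1 tested member of the chosen blood list of 7, which marks red blood cells in the tissue. Its signal was 18.20, 18.44 and 18.81 log2 units in MDMA daughters, against 17.73, 18.10 and 18.50 in control daughters. The ranges overlapped widely, all 8 MDMA arrays were above the control mean, and the difference was 0.38 ± 0.13 (SE, adjusted p = 0.044), with 0.41 without F1F20CX-2 (adjusted p = 0.038). The call was lost under 6 of 11 processing alternatives and without control replicate 2, 3, 6 or 7 or MDMA replicate 3, 4, 5, 6 or 8, with a highest adjusted p of 0.095. Its part in the other differences was not tested. The neuronal marker Snap25, of the synaptic fusion machinery, was dim on this array, above the detection limit on 4 of 8 MDMA and 6 of 7 control arrays. Its signal was 7.90, 9.16 and 10.92 log2 units in MDMA daughters, against 8.70, 10.24 and 12.45 in control daughters, and the difference was -0.98 ± 0.51 (SE, adjusted p = 0.16).

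Other classes held few calls or none. Jun, the 1 tested immediate-early gene of 17 listed, had 14.52, 15.00 and 15.26 log2 units in MDMA daughters, against 14.60, 14.81 and 15.30 in control daughters, and differed by 0.04 ± 0.13 (SE, adjusted p = 0.85). Mt3, the brain metallothionein and the 1 tested of 15 stress and metal defence genes, differed by -0.03 ± 0.10 (SE, adjusted p = 0.86). Of 51 olfactory and chemosensory receptor genes on the array, 4 had a tested probe, and their differences ran from -0.26 to -0.08 with 0 calls and group medians from 10.14 to 11.61 log2 units. Of 3 orphan receptors, Gpr119, a lipid receptor of gut and pancreas, fell by 0.42 ± 0.15 (SE, adjusted p = 0.0499) and was not called without F1F20CX-2 (adjusted p = 0.079); Gpr173 and Gpr27 did not pass. Sf3b5, a subunit of the spliceosome's branch-point complex and the 1 tested splicing gene of 9 listed, differed by -0.20 ± 0.06 (SE, adjusted p = 0.025) and by -0.23 without F1F20CX-2 (adjusted p = 0.0079). Leaving out control replicate 2 ended the call (adjusted p = 0.056). So did no filter on dim probes, the fit of all 34 arrays and control probe covariates. The serotonin and dopamine synthesis, transport and receptor lists and the glutamate and GABA receptor list had 0 named probes, so the direct targets of MDMA were not analysed here.

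For 8 genes the call changed when F1F20CX-2 was left out. With it, Eif4ebp1, Gpr119, Nupr1l, Rap2b and Rnf169 passed, and without it they did not. Rap2b, a Ras-like GTPase, differed by -0.34 ± 0.11 (SE, adjusted p = 0.032) and by -0.31 without F1F20CX-2 (adjusted p = 0.051). Rnf169, which binds ubiquitin at DNA breaks, differed by -0.17 ± 0.06 (SE, adjusted p = 0.048) and by -0.16 without F1F20CX-2 (adjusted p = 0.064), and Nupr1l by -0.35 ± 0.12 (SE, adjusted p = 0.035) and by -0.30 without F1F20CX-2 (adjusted p = 0.054). Other arrays weighed on these calls too: leaving out 1 array ended the call for 7 arrays in Rap2b, 9 in Nupr1l, 11 in Gpr119 and 13 in Rnf169. For Eif4ebp1 it did so for 11 of 15 arrays, in 4 cases, F1F20CX-2 among them, because the probe was then too rarely detected to be tested. Without F1F20CX-2, Grap, Gprasp1 and Med9 passed in addition. Gprasp1, which sorts G protein-coupled receptors to lysosomes, differed by -0.16 ± 0.08 (SE, adjusted p = 0.14) and by -0.20 without F1F20CX-2 (adjusted p = 0.037). Grap, an adaptor of receptor signalling, differed by 0.37 ± 0.17 (SE, adjusted p = 0.12) and by 0.46 without F1F20CX-2 (adjusted p = 0.046), and Med9, a subunit of the Mediator complex, by 0.11 ± 0.09 (SE, adjusted p = 0.41) and by 0.18 without F1F20CX-2 (adjusted p = 0.032).

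The other genes that passed in both fits had small falls. Eola1 (-0.35 ± 0.09, SE, adjusted p = 0.0081) and Tbc1d16, a GTPase activator of Rab proteins (-0.34 ± 0.09, SE, adjusted p = 0.0084), were lower in MDMA daughters. So were the galectin Lgals7 (-0.26 ± 0.08, SE, adjusted p = 0.021) and Akap7, an anchor of protein kinase A (-0.24 ± 0.09, SE, adjusted p = 0.048). Cebpb, a basic leucine zipper factor, had 2 tested probes that disagreed in sign, at -0.25 ± 0.09 (SE, adjusted p = 0.054) and 0.74 ± 0.29 (SE, adjusted p = 0.067), and neither passed.

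Named genes on this array often lie next to each other, so neighbours could be compared. In 6 runs of at least 4 tested genes no more than 1 Mb apart, 8 of 48 genes passed (16.7%, against 24.1% of all named genes and 28.2% of all probes), at most 2 of them in any run. The longest, from Snap47 to Akap10 with 23 tested genes, includes genes of the mouse counterpart of the Smith-Magenis interval, whose loss in humans gives a neurodevelopmental syndrome. There Drg2 rose, Rasd1 fell, 21 did not pass, with differences from -0.22 to 0.37, and the median was -0.10. Mpdu1 rose and Fgf11 fell in the run of 6 from Mpdu1 to Ctdnep1. Cdc42ep1 and Pdxp rose in the run of 5 from Cdc42ep1 to Nol12, where the other 3 ran from -0.24 to 0.31. Mydgf rose among its 4 and Prr18 fell among its 4, and 0 of 6 passed from Ghdc to Psme3.

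**Figure D4:**
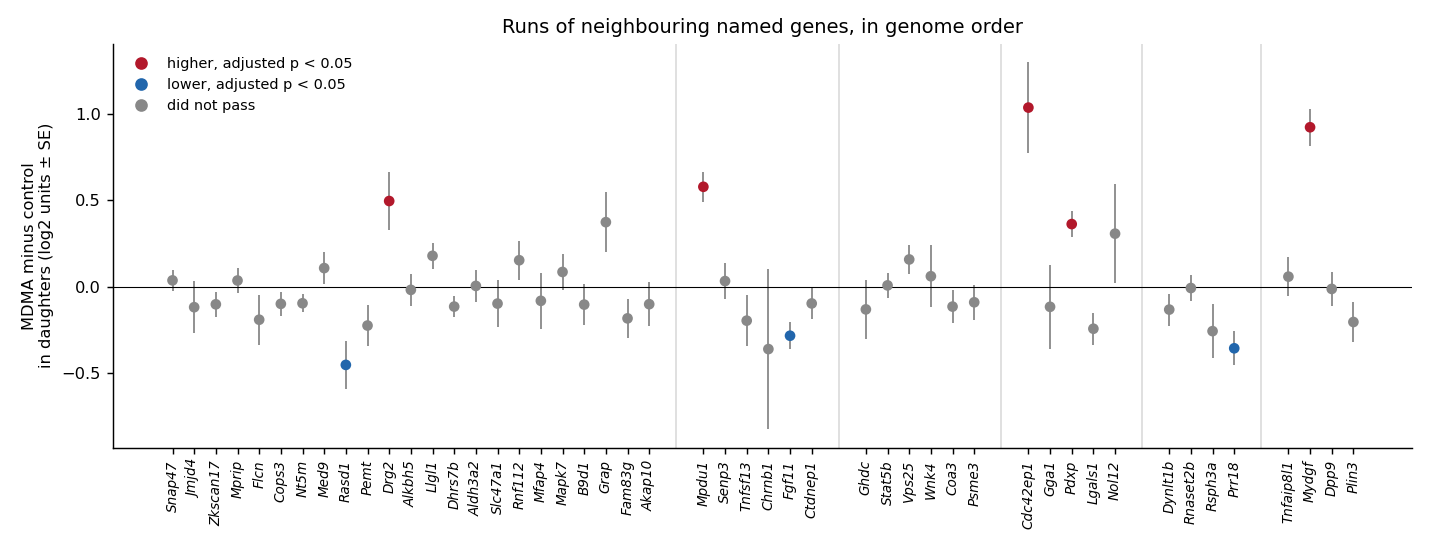
Difference between MDMA and control daughters (log2 units, bars are SE) for the genes of 6 runs of neighbouring named genes, in genome order, with vertical lines between runs; red is higher and blue lower at an adjusted p below 0.05, and grey did not pass. In the run of 23 genes at the left, Drg2 (0.50) and Rasd1 (-0.45) stand out from a median of -0.10.

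Probes without a symbol showed larger differences than any named gene. Among those above the detection limit on 0.5 or more of the arrays in each group, the 2 largest rises were mCG142115.1 and mCG134297.1. The signal of mCG142115.1 was 11.42, 13.32 and 15.67 log2 units in MDMA daughters, against 7.83, 10.20 and 11.15 in control daughters, without overlap. It differed by 3.55 ± 0.59 (SE, adjusted p = 0.00050), with 3.22 without F1F20CX-2 (adjusted p = 0.00056). For mCG134297.1 it was 11.83, 12.81 and 14.37 log2 units in MDMA daughters, against 7.82, 9.91 and 10.54 in control daughters, also without overlap. It differed by 3.40 ± 0.45 (SE, adjusted p = 0.00011), with 3.19 without F1F20CX-2 (adjusted p = 0.00016). Both were above the detection limit on 8 of 8 MDMA and 4 of 7 control arrays, so these sizes rest in part on control signals at background. F1F20CX-2 was the highest array for both. The 2 largest falls were mCG145616, which differed by -1.32 ± 0.43 (SE, adjusted p = 0.034), and mCG56653.1, which differed by -1.30 ± 0.27 (SE, adjusted p = 0.0023). Both were above the detection limit on 5 of 8 MDMA and 7 of 7 control arrays, and the call for mCG145616 was lost without MDMA replicate 1 or 6 or control replicate 1, 2 or 5.

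Whether the daughters' response differed from the sons' was tested as the difference of the 2 effects in a fit of all 34 arrays, with errors given as SE. It passed for 4412 of 19014 probes (23.2%), 2058 with a larger value in daughters (10.8%) and 2354 with a smaller one (12.4%). With each array centred on its median, 8238 passed, 1105 larger and 7133 smaller in daughters, so the balance of directions depends on the scaling. Among the 24 genes named above as the largest rises and falls, 12 passed. They were chosen for their difference in daughters, which is part of this test, so that count is a description only. The sons' arrays stood closer to F1F20CX-2 than to the other daughters' arrays, as given above. Whether that lies in the array or in the sample was not tested. No slide or scan date stands in the files, so a difference between the arrays of the sexes cannot be told apart from sex. Paqr9 differed by -0.54 ± 0.07 in daughters and -0.03 ± 0.06 in sons, a difference of -0.52 ± 0.10 (adjusted p = 0.00034). Mydgf differed by 0.89 ± 0.10 in daughters and 0.23 ± 0.09 in sons, and the difference of the 2 was 0.66 ± 0.13 (adjusted p = 0.00052). For Tspyl2 the effects were 0.40 ± 0.07 in daughters and -0.08 ± 0.06 in sons, and the difference was 0.48 ± 0.09 (adjusted p = 0.00048). For Nt5dc3 they were 0.84 ± 0.12 in daughters and 0.15 ± 0.10 in sons, and the difference was 0.69 ± 0.15 (adjusted p = 0.0018). In each of these 4 the daughters' effect was the larger one, and none passed in sons alone. Mean levels in control sons, in that fit, were 13.96 for Mydgf, 14.42 for Nt5dc3, 13.63 for Tspyl2 and 12.88 for Paqr9. Normalised among daughters only, control daughters had 13.03, 13.55, 13.09 and 12.97, and MDMA daughters 13.95, 14.42, 13.50 and 12.40. For Mydgf, Nt5dc3 and Tspyl2 the control daughters stood further from the control sons than the MDMA daughters did, and for Paqr9 nearer. Sex, any difference between the arrays and normalisation cannot be told apart in these levels.

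For 4 of the 24 genes the effects had opposite signs and the effect in sons passed. Trim59 differed by -0.44 ± 0.13 in daughters and 0.74 ± 0.12 in sons, a difference of -1.18 ± 0.18 (adjusted p = 3.6e-05). For Zfp945 the effects were -0.41 ± 0.24 in daughters and 0.95 ± 0.21 in sons, and the difference was -1.35 ± 0.32 (adjusted p = 0.0030). Prr18 differed by -0.34 ± 0.11 in daughters and 0.48 ± 0.10 in sons, and the difference was -0.82 ± 0.15 (adjusted p = 0.00030). Hba-a1 was the one with a positive effect in daughters, at 0.38 ± 0.22 in daughters and -0.87 ± 0.20 in sons, and a difference of 1.25 ± 0.30 (adjusted p = 0.0032). In this fit of all 34 arrays Hba-a1 and Zfp945 did not pass in daughters alone. Mpdu1 was higher in both sexes, at 0.56 ± 0.08 in daughters and 0.37 ± 0.07 in sons, with a difference of 0.19 ± 0.11 (adjusted p = 0.21). Cdc42ep1, Gnas and Ldhal6b were also higher in MDMA sons past the threshold, and their differences between the sexes did not pass, which does not show that the sexes responded alike. For Ldhal6b the control daughters were near background, as given above, and the control sons averaged 8.45 log2 units. Without F1F20CX-2 the difference for Rtl8c no longer passed (adjusted p = 0.069 without it, 0.049 with it).

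**Figure D5:**
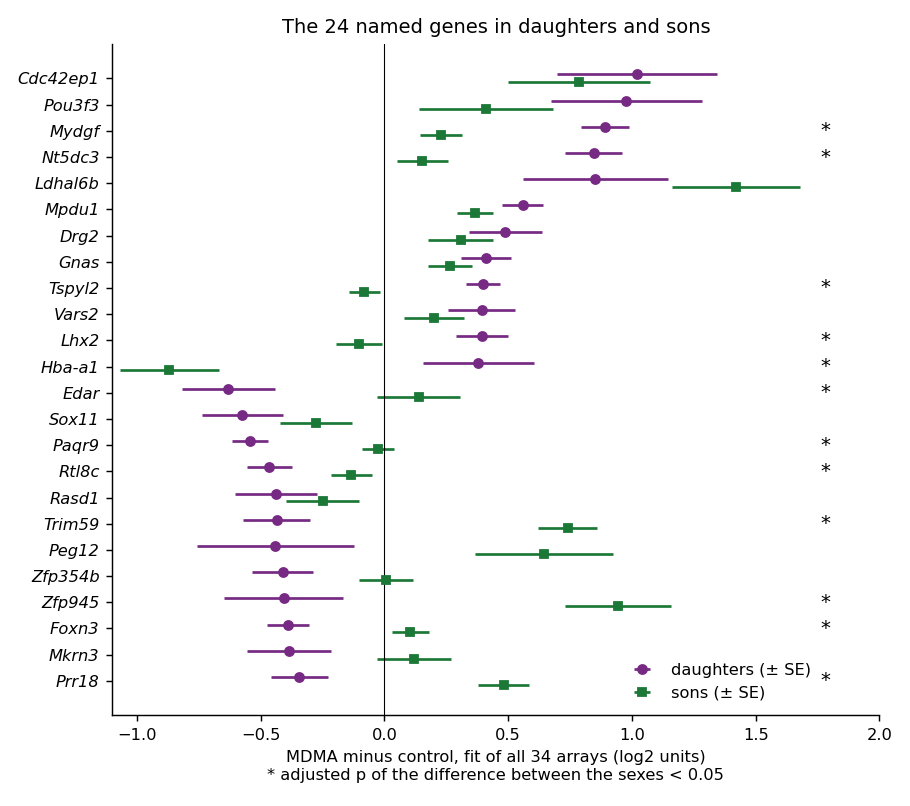
MDMA minus control (log2 units, bars are SE) in daughters (circles) and sons (squares) for the 24 largest named rises and falls, from the fit of all 34 arrays; stars mark an adjusted p below 0.05 for the difference between the sexes. Trim59, Zfp945, Prr18 and Hba-a1 lie on opposite sides of 0 in the 2 sexes, and Mpdu1 is above 0 in both.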

How the data were processed

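RNA of 34 mouse cortex samples was read on single-colour Applied Biosystems chemiluminescent arrays; the 15 daughters' arrays are used here and the 19 sons' arrays for 1 test. Per the file headers, the authors deposited for each of 33315 rows a signal intensity, a signal-to-noise score and a quality flag; no header or label names the software. A table of log2 values that the authors deposited was used as an alternative. Its columns follow the signals in rank (correlation 1) and its empty cells, 35.7%, are exactly the spots below 1.5 in signal-to-noise or flagged at 5000 or above; any further centring is unknown.

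Here, 303 control rows were left out, flags of 5000 or more were set to missing (2595 spots, 0.524%), and log2 signals were quantile normalised over 33012 gene probes within the daughters. A probe was tested if it was detected (signal-to-noise of 3 or more) on a share of 0.5 or more of either group's arrays. A 2-group model was fitted with limma 3.58.1 in R 4.3.3 (lmFit, eBayes), with Benjamini-Hochberg adjustment over all tested probes and a threshold of 0.05. The number of arrays limits the precision. In simulated data with 200 changed of 18258 probes, 44% of changes of 0.5 and 73% of changes of 1 log2 unit were recovered, with 6 false calls. The simulated noise was independent between probes and arrays and held no differences shared by whole arrays. Those false calls therefore do not measure false calls in the real data. The simulated share of changed probes was also far below the 28.2% called in the real data. Benjamini-Hochberg adjustment depends on that share, so the recovered percentages do not carry over to the real comparison. The sex comparison used all 34 arrays, normalised together. Runs of neighbours follow the order of genes in the RefSeq table.

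Symbols come from the RefSeq gene table of GRCm38.p6, by accession for 311 probes and by synonym for 6. A gene with several probes is given by its brightest. Named are the 12 largest rises and falls past the threshold with and without F1F20CX-2, up to 4 members of each gene list, up to 5 genes lost or gained without that array, and the 2 largest rises and falls without a symbol; Pdxp, Ddx28, Gnl2, Trim41, Eola1, Tbc1d16, Lgals7, Akap7 and Cebpb were added after their values were seen. Members and lists were chosen with earlier results of these data known. Replicate numbers are shared between the groups, but same-numbered arrays deviated with correlations of -0.15 to 0.10, so they were not treated as pairs. Alternatives were median centring, an offset of 50, the authors' table, other filters, poor-quality spots kept, other variance models, array weights, all 34 arrays, a replicate block, 2 components of 33 control probes and leaving out each array; a running-number covariate was added after seeing the data.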

Additional observations from a re-analysis of the deposited data

Results flagged for a closer look

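In 12 of the 24 largest named rises and falls the MDMA effect in daughters differed from that in sons by limma's test of the difference (daughters minus sons, log2 units). Over all tested probes 23.2% passed it. The 24 were chosen for their difference in daughters, which is part of this test, so the count is a description only. The values were 0.66 for Mydgf, 0.69 for Nt5dc3, 0.48 for Tspyl2, 0.50 for Lhx2 and 1.25 for Hba-a1. They were -0.77 for Edar, -0.52 for Paqr9, -0.33 for Rtl8c, -1.18 for Trim59, -1.35 for Zfp945, -0.50 for Foxn3 and -0.82 for Prr18. The same test passed for Nupr1l (-0.76), Rap2b (-0.39), Rnf169 (-0.43), Otub1 (0.63), Nt5m (0.21) and Rnf112 (0.69). It also passed for mCG142115.1 (2.82) and mCG134297.1 (2.30). Without F1F20CX-2 the difference no longer passed for Rtl8c and Rap2b, with adjusted p-values of 0.069 and 0.064. Nt5m and Rnf112 passed this test while their effect in daughters alone did not, and both passed in sons.

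Single arrays stood apart for 9 genes, with a gap to the nearest array that was large for the range of their group. Of 118 groups of values examined, chance gives about 1 in 20 such gaps. F1F20CX-2 stood apart for Drg2 (13.45), Lhx2 (15.03) and Med9 (12.97). Control replicate 1 did so for Sox11 (12.08) and Fgf11 (13.80). The others were Nt5m in control replicate 7 (15.62), Zbtb18 in control replicate 5 (18.50), Ramp3 in MDMA replicate 8 (13.25) and Vmn1r52 in MDMA replicate 1 (8.13). The part of array quality in these values was not tested.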

How the results depend on the processing

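The number of called probes in daughters moved from 5148 to 3341 with no filter on dim probes, where 33011 probes were tested, to 1960 with control probe components and to 3 with the running number as a covariate, added after seeing the data. Without F1F20CX-2 it moved from 5227 to 3418, 2410 and 4 under the same settings and to 3163 with a replicate block; with all 15 arrays the block gave 3706. Numbers in the labels do not pair the arrays, so the block is given here only. The other processing settings gave 4691 to 6965, and leaving out 1 array 4227 (without control replicate 2) to 5227. The difference between the sexes moved from 4412 to 8238 probes with median centring, 1105 higher and 7133 lower. The detected share turned from 0.15 to -0.18 percentage points without F1F20CX-2 (exact permutation p = 0.89). The cause of these changes was not tested beyond what each setting's construction shows.

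With the running number, Peg12 turned to 0.013, Otub1 to -0.047, Gpr173 to -0.30 and Ramp3 to 0.076. Rnf112 turned to -0.084 with median centring. Differences near 0 changed sign in several settings. Slc47a1 was 0.038 with control probe components, 0.28 with the running number and from -0.16 to 0.0022 (without control replicate 2) with 1 array left out. H2bc13 was 0.15 with control probe components and 0.012 with the running number, and Olfr982 was 0.038 and Gpr27 -0.039 with control probe components. Gpr27 was -9.7e-05 with the running number. Jun was -0.15 with median centring, -0.0033 with array weights, -0.028 with control probe components, -0.12 with the running number, and from -0.016 (without control replicate 7) to 0.10 with 1 array left out, among them -0.0078 without MDMA replicate 6. Mt3 was 0.022 with array weights and from -0.069 to 0.036 (without F1F20CX-2) with 1 array left out, among them 0.00042 without MDMA replicate 1. Vmn1r52 was 0.20 in the authors' table, 0.21 with array weights and from -0.28 to 0.21 (without MDMA replicate 1) with 1 array left out, among them 0.034 without control replicate 1 and 0.019 without control replicate 3. Mydgf, Nt5dc3, Mpdu1, Tspyl2, Sox11, Paqr9 and Rtl8c passed under every planned processing alternative and with any 1 array left out, though not with the running number. Pou3f3 did the same in the alternatives run for it, but it had entered the test through the MDMA group. Detected on 3 of 7 control arrays, it was not tested where every array had to reach the signal-to-noise minimum. No slide or scan date stands in the files, so that block was not run.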

Other observations

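The imprinted Prader-Willi region held 4 tested genes, grouped after their values were seen and given with no test of the group. Mkrn3 (-0.39 ± 0.12, SE) and Peg12 (-0.45 ± 0.15, SE) were lower in MDMA daughters, while Ndn, which restrains neuronal growth, differed by 0.08 ± 0.11 (SE, adjusted p = 0.60) and Ube3a, the ubiquitin ligase whose maternal loss causes Angelman syndrome in humans, by -0.12 ± 0.08 (SE, adjusted p = 0.30).

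With the running number as a covariate the 3 probes that passed were mCG21505.2 (2.39, adjusted p = 0.00068), mCG20217.1 (-1.13, adjusted p = 0.011) and mCG128637.2 (1.92, adjusted p = 0.049). The median ratio of a called probe's difference in that fit to its difference without the covariate was 0.811.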
